A study of Mus musculus with 81 samples.

Results

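The replication-coupled histone genes are the clustered genes that supply nucleosomes during DNA replication. They were taken as every protein-coding gene whose symbol starts with Hist1h, Hist2h, Hist3h or Hist4h, which gave 67 of 21951 protein-coding genes (55450 genes in all) in the mouse annotation. Another 3 genes with such symbols are annotated as pseudogenes and were left out. The 67 members comprise 6 genes for the linker histone H1, 18 for H2A, 18 for H2B, 12 for H3 and 13 for H4. The Hist1 cluster holds 54 of them on chromosome 13, the Hist2 cluster 10 on chromosome 3, the Hist3 cluster 2 on chromosome 11, and Hist4h4 lies alone on chromosome 6.

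RNA-seq was carried out on 81 libraries of macrophages and, on days 3 and 5, their progenitors from C57BL/6 mice of 8 to 10 weeks of age. H3.3cKO (cKO) mice were H3f3a fl/fl, H3f3b fl/fl and LysM cre/cre, so that both genes for the replacement histone H3.3 are deleted in the myeloid lineage, while WT mice carried the same floxed alleles without Cre. Bone marrow was cultured with L929-conditioned medium, a source of the growth factor M-CSF, to give bone marrow-derived macrophages (BMDMs). Libraries were made on days 3, 5 and 7 (18), on day 8 with or without 12 h of IFNγ (12), on day 6 after culture without antibody, with a control antibody or with an IFNAR1 antibody at 10 µg/mL (18), from peritoneal macrophages (6), and from 3 sets of WT and cKO BMDMs with H3.3cKO:StingKO, H3.3cKO:MavsKO and H3.3cKO:Irf7KO BMDMs (27). Each group had 3 libraries except the cKO groups of day 8, which had 2 each. The remaining 2 cKO libraries of day 8 carry a title and a library name that name opposite treatments, and they entered no comparison. The labels do not tie a WT and cKO set to a double knockout, and they do not say whether libraries came from separate mice, so p-values measure the spread between libraries. LysM-Cre sits in the Lyz2 gene, so Lyz2 and Cre dosage differ between cKO and WT in every comparison.

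Summed gene counts per library ran from 14419697 to 20220329 in the time course, 3614967 to 10498769 on day 8, 7625225 to 23381318 in peritoneal cells, 21504555 to 45581528 for the BMDM sets and 5295144 to 34380735 with antibodies. The targeted gene H3f3a, at 7% to 27% of WT, was lower in cKO in every experiment. H3f3b stood at 75% to 90% of WT except in the antibody experiment, where it was at 11.5% to 13.3%. The cKO day 8 IFNγ replicate 1 stood apart, with 57.06% of its reads unmapped against 12.6% to 18.4% in the other day 8 libraries and with the lowest depth of the series. The called members and medians that rest on it are given with and without it.

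Replication-coupled histone genes are transcribed mainly in S phase, when a cell must package newly copied DNA, and their mRNA is degraded when replication ends. H2A, H2B, H3 and H4 form the core of the nucleosome, and H1 binds the DNA that enters and leaves it. Their mRNAs usually end in a short hairpin in place of a poly(A) tail. The stem-loop binding protein, encoded by Slbp, holds this hairpin and is needed for processing, translation and stability of the mRNA. H3.3, by contrast, is made throughout the cell cycle from polyadenylated mRNA and is placed in chromatin outside replication as well.

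The hairpin is the feature that most of the members share, and its forms are shown here with the genes that carry them. A perfect stem of 6 base pairs opening with GG and a loop of 4 bases was sought within 150 bases after the coding sequence. It was found in 46 of the 52 members whose annotated transcript extends at least 16 bases past the stop codon (88.5%). Among other protein-coding genes that extend as far, it was found in 106 of 20805 (0.509%). Letters in capitals mark the stem, and the sequences are from GENCODE vM21 transcripts on GRCm38, written 5′ to 3′ on the sense strand.
Hist3h2ba (chr11:58949349-58949364, + strand): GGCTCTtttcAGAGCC
Hist1h4d (chr13:23581950-23581965, + strand): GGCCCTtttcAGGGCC
Hist1h2bb (chr13:23747203-23747218, + strand): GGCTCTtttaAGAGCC
Hist2h4 (chr3:96262939-96262954, - strand): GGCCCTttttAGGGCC
Hist1h4j (chr13:21735437-21735452, + strand): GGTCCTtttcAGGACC
Hist1h4a (chr13:23760800-23760815, - strand): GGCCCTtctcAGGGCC
Hist1h3g (chr13:23535889-23535904, + strand): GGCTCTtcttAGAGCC
Hist2h2ac (chr3:96220418-96220433, - strand): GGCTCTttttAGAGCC
The first form was carried by 26 members of all classes except H4, including both Hist3 genes, Hist1h1c, Hist1h2ab and Hist1h3d. The second was carried by 7 members, all of them H4 genes, and the third by 6 members, among them Hist1h3c, Hist1h3e and Hist1h2bk. Hist2h4 shared its form with Hist1h4i and Hist1h4j with Hist1h4b, and the last 3 forms occurred once each. By class, the hairpin was found in 4 of 5 H1, 11 of 11 H2A, 10 of 14 H2B, 9 of 10 H3 and 12 of 12 H4 genes. No hairpin of this form was found for Hist1h1a, Hist1h2bc, Hist1h2bq, Hist1h2br, Hist2h2be and Hist2h3b, which says only that the form is not within the window read.

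The members also shared promoter motifs. In RefSeq promoters (250 bases before to 50 after a start, GRCm38, both strands), the letters CCAAT occurred in 54 of 63 promoters of 62 matched members (85.7%), against 37.4% of all 32851 promoters. The letters TATAA occurred in 50 of 63 (79.4%), against 24.9% of all promoters.

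The genes are short, nearly alike and densely packed, and this sets what their counts hold. Only 17 members had a coding sequence in which at least 50% of the 50-base words occur in no other member, 11 had none, and the pairs Hist1h2ao and Hist1h2ap, Hist1h2bq and Hist1h2br, Hist1h4m and Hist1h4n, and Hist2h2aa1 and Hist2h2aa2 have identical coding sequences. The libraries do not mark strand, and 24 members share exon bases with another annotated gene, in which case fragments that touch both genes are not counted for either. All 18 H2A genes are among them, 17 through an antisense miRNA model of 129 to 144 bases that lies inside the gene. In the time course the H2A counts amounted to 24.2% of what the 2 strand-specific columns of the same files hold together, against 99.95% for H1, 97.8% for H2B, 91.6% for H3 and 94.6% for H4. The 38 members without an overlapping gene and with at least 100 counts kept 98.8% to 100% of theirs. Hist2h3b, Hist1h4b, Hist2h2bb and Hist2h2ab, named after their values were seen, kept under 10% and overlap antisense genes, and without strand their reads cannot be told apart from those of these partners. H2A levels below are levels of the fragments that were kept, and levels of single members with close copies are uncertain.

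The members were abundant in culture. Over the 18 libraries of the time course they summed to a mean of 5221 CPM, a count relative to library size after TMM scaling, that is 0.294% to 0.746% of all counts in a library. H4 supplied 33.2% of the sum, H1 29.0%, H2B 17.3%, H3 17.3% and H2A 3.17%. With both strand columns counted, the H2A share was 11.5%, with H4 at 30.8%, H1 at 25.4%, H3 at 16.7% and H2B at 15.7%. At the level of single genes, 42 members reached a mean of 10 CPM, 14 stayed under 1 CPM and 6 had 0 counts. Per kilobase of annotated exon, the highest values in WT cells of the time course were those of Hist1h4f (658 ± 137 CPM per kilobase, SD, n = 9), Hist1h4k (594 ± 123), Hist1h4h (542 ± 75.1), the linker histone gene Hist1h1b (359 ± 107) and Hist1h4d (319 ± 58.2). The spread within WT over days is large enough that the first 3 of these neighbours overlap within 1 SD. The order also depends on the annotated length, which can run well past the hairpin. Hist1h4d is annotated with 1138 bases, although its hairpin lies 36 bases after the stop codon, and Hist1h4f with 391 bases. The values are therefore no ranking of transcript numbers.

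Across days 3, 5 and 7, the summed level of the members was lowest in cKO on day 3. WT libraries summed to 5327, 5363 and 4143 CPM on day 3 and cKO libraries to 4653, 3727 and 4007 CPM. On day 5 WT held 5518, 5642 and 5796 CPM and cKO 4493, 6683 and 7315 CPM. On day 7 WT held 6432, 2965 and 5239 CPM and cKO 4736, 5883 and 6051 CPM. The groups overlapped on every day, and WT day 7 replicate 2 was the lowest library of all. That library was also low for genes of the cell cycle, with 785 CPM summed over 26 DNA replication genes and 1112 CPM over 18 mitosis genes, against 2531 to 3431 and 2370 to 3160 CPM in the other WT libraries of that day. In bulk RNA, fewer cells in S phase and less histone mRNA in each cell cannot be told apart.

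**Figure D1:**
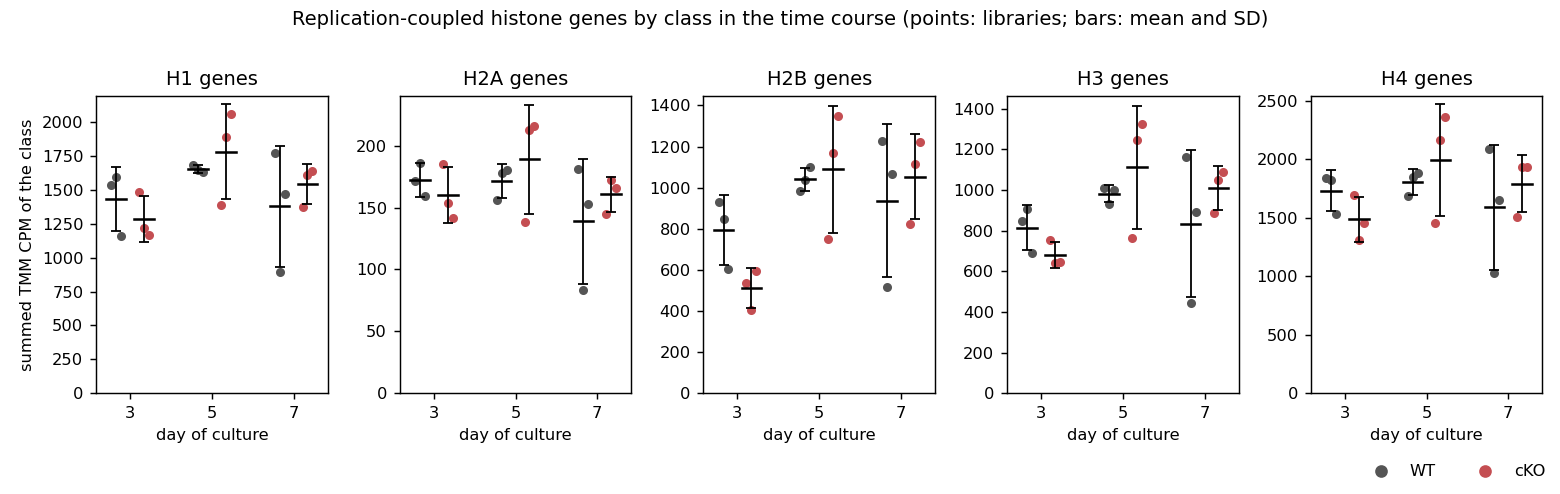
Summed TMM CPM of the members of each histone class (H1, H2A, H2B, H3, H4) by day, with 1 point per library and bars for the mean and SD (n = 3), for WT and cKO. In these unstranded counts, the cKO libraries lie below all WT libraries on day 3 in the H2B panel (596 CPM at most against 604 CPM at least), and WT day 7 replicate 2 lies lowest among the WT libraries of day 7 in each panel.

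On day 3 the H2B genes, counted without strand, stood lower in cKO. Their sum came to 929, 849 and 604 CPM in WT and to 537, 407 and 596 CPM in cKO, so that every cKO library was below every WT library, at 64.6% of the WT mean. The H1, H2A, H3 and H4 sums of cKO stood at 90.0%, 92.9%, 83.3% and 86.0% of WT, with overlapping libraries. The H2A value rests on the few fragments kept. Over both strand columns on the same scale, an alternative chosen after seeing the data, H2A lay between 566 and 764 CPM in WT and between 442 and 548 CPM in cKO (71.8% of WT), without overlap. On that count H2B lay between 616 and 957 CPM against 419 and 614 CPM, and H1, H3 and H4 overlapped. Without TMM scaling H2A stayed apart (492 to 640 against 368 to 446 CPM) and H2B overlapped (535 to 784 against 349 to 561 CPM). Of the 14 H2B genes tested, 13 had a lower estimate in cKO (median log2 fold change −0.63), and over all 54 members tested 42 were lower (median −0.35, against 0.04 over all genes). The fall was not seen over the 13 tested members with at least 50% unique coding words. Of these, 7 were higher and 6 lower (median 0.07). None of the 13 was an H3 gene, and the only H2B genes were Hist1h2bm, Hist2h2be and Hist3h2ba. The subset therefore cannot speak for the H2B or H3 class. Cell cycle genes stood lower in cKO as well. Mki67, a marker of cycling cells, was at 48.1% and the mitosis sum at 63.1% of WT, with every cKO library below every WT library, whereas the DNA replication sum was at 87.2% and overlapped. By edgeR, 0 of 18 mitosis genes and 0 of 26 DNA replication genes passed the adjusted test, and 9 and 2 had an unadjusted p under 0.05. Markers of B cells differed between these groups as well, with 3 of 6 called higher in cKO, sums of 13.4 to 14.3 CPM in WT and 27.3 to 57.3 CPM in cKO, and no marker at 0. Interferon response genes were called higher in 7 of 7 cases. The part of either in the histone levels was not tested.

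Gene by gene, edgeR's quasi-likelihood test with Benjamini-Hochberg adjustment over all genes (adjusted p under 0.05, hereafter called) found 1 member higher and none lower on day 3, when 7.73% of all genes were called. It found the same count on day 5 (2.83% of all genes called) and on day 7 (1.4%). The member was Hist3h2ba on each day, an H2B gene of the small Hist3 cluster. Day 3 gave 10 of 54 members with an unadjusted p under 0.05, 7 of them H2B genes. With the replicate number as a block, 2 members were called on day 3, since the neighbouring H2A gene Hist3h2a then also rose (log2 fold change 1.28, adjusted p = 0.0409, against 1.25 and 0.0532 without the block). Hist3h2a had 1.57, 1.35 and 1.01 CPM in WT and 3.14, 2.53 and 3.60 CPM in cKO on day 3, without overlap.

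The most abundant member of each class is given here by library. Hist1h1c, which encodes the linker histone H1.2, had 481, 519 and 450 CPM in WT and 567, 491 and 465 CPM in cKO on day 3. Hist1h2bb had 133, 130 and 108 CPM in WT and 81.9, 67.3 and 103 CPM in cKO. Hist1h4d had 403, 387 and 305 CPM in WT and 290, 219 and 249 CPM in cKO. The first of these overlapped between genotypes, while all cKO libraries were below all WT libraries for Hist1h2bb and Hist1h4d, and neither was called. Hist1h3e had 205, 208 and 165 CPM in WT against 188, 156 and 145 CPM in cKO, and Hist1h2ab 29.5, 37.0 and 35.9 against 31.2, 28.4 and 24.6 CPM. Both overlapped. On days 5 and 7 these 5 members overlapped between the genotypes except Hist1h1c on day 5, with 453, 439 and 465 CPM in WT and 480, 542 and 607 CPM in cKO.

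The H3 genes encode the replication-coupled counterpart of the deleted H3.3. Hist1h3c had 158, 166 and 157 CPM in WT on day 3 and 135, 121 and 127 CPM in cKO. Hist1h3g had 46.1, 45.1 and 35.1 CPM against 33.5, 27.7 and 28.7 CPM. For both, the cKO libraries were all below WT on day 3. Groups lay apart with cKO lower for 14 of the 54 members tested and 15.8% of all genes that day. With cKO higher, they did so for 2 members and 18.3% of all genes. On day 7 Hist1h3c stood at 183, 76.4 and 149 CPM in WT and 133, 166 and 181 CPM in cKO, and Hist1h3g at 48.3, 16.2 and 39.2 CPM against 37.3, 42.2 and 46.2 CPM, so that the groups overlapped. Hist2h3c2 was low throughout, with 2.04, 1.58 and 2.41 CPM in WT and 1.63, 1.3 and 1.51 CPM in cKO on day 3, and its coding sequence holds no 50-base word of its own. No H3 member was called between cKO and WT on days 3, 5 or 7.

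Between days 3 and 5 several members rose in cKO cells. From day 3 to day 5, 7 of 54 members were called higher in cKO and none lower, when 3.59% of all genes were called, with 51 of 54 estimates above 0 (median 0.57, against −0.02 over all genes). The 7 were Hist1h4n, Hist1h3d, Hist1h3h and the H2B genes Hist1h2bg, Hist1h2be, Hist1h2bm and Hist1h2bp. Hist1h4n had 21.9, 18.5 and 33.6 CPM on day 3 and 46.6, 73.8 and 81.3 CPM on day 5 in cKO (log2 fold change 1.44 ± 0.30 SE, adjusted p = 0.0173 by edgeR). Hist1h3d went from 44.2, 34.3 and 37.0 CPM to 56.1, 114 and 117 CPM (1.31). Hist1h2bg went from 55.7, 44.2 and 68.0 CPM to 85.0, 149 and 171 CPM (1.27), and Hist1h2be from 39.4, 25.1 and 44.8 CPM to 64.5, 82.5 and 107 CPM (1.21). No library of the earlier day reached those of the later day in these 4 genes. Groups lay apart upward for 23 of 54 members and 14.9% of all genes, and downward for 0 members and 15.2% of all genes.

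The H2B sum of cKO cells rose 2.12-fold and the H3 sum 1.64-fold over those days, both without overlap between libraries, and the sum of all members stood 1.49-fold higher with overlap. The mitosis sum was 1.93-fold and Mki67 2.34-fold higher beside them, and 3 of 18 mitosis genes were called higher. In WT the same days gave 0 called of 54 (2.64% of all genes called; 2 members had an unadjusted p under 0.05, and DESeq2 gave 0), with 42 estimates above 0 (median 0.24). WT Hist1h4n had 38.0, 42.4 and 29.8 CPM on day 3 and 60.8, 57.1 and 62.5 CPM on day 5. An interaction test of genotype with day 7 against day 3 called no member (0.0439% of all genes called; 5 members had an unadjusted p under 0.05; DESeq2 called 1), although 50 of 54 estimates were above 0 (median 0.50). From day 5 to day 7, 0 members were called in WT (0.238% of all genes called; 2 with an unadjusted p under 0.05) and 0 in cKO (0.0564%; 0 with an unadjusted p under 0.05), and DESeq2 gave 0 as well. The day 5 against day 3 count in cKO depended on single libraries: it was 0 without cKO day 3 replicate 1 or 2 or cKO day 5 replicate 2 or 3, 2 without cKO day 3 replicate 3 and 19 without cKO day 5 replicate 1. Markers of neutrophils fell over the same days (5 of 8 in WT and 4 of 8 in cKO), with cKO sums of 2734 to 4222 CPM on day 3 and 504 to 1742 CPM on day 5 and no marker at 0. Those of B cells fell too (5 of 6 in both), with cKO sums of 27.3 to 57.3 CPM and 5.24 to 13.5 CPM. Their part was not tested.

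Hist3h2ba was the member that differed between genotypes most often. It lies at chr11:58948920-58949533, overlaps no other gene, and shares no 50-base word of its coding sequence with any other member. On day 3 WT had 0.341, 0.645 and 0.785 CPM and cKO 2.07, 1.98 and 3.34 CPM (2.04 ± 0.44 as log2 fold change with its SE, adjusted p = 0.00904 by edgeR). On day 5 WT had 0.537, 1.27 and 1.86 CPM and cKO 7.81, 3.53 and 5.05 CPM (2.14 ± 0.40, adjusted p = 0.011 by edgeR). On day 7 WT had 0.938, 1.12 and 1.08 CPM and cKO 5.76, 3.8 and 3.82 CPM (2.09 ± 0.41, adjusted p = 0.0199 by edgeR). All cKO libraries were above all WT libraries on each day, while the gene remained a minor part of the H2B sum. The call was lost on day 3 without WT replicate 1 (adjusted p = 0.0544 by edgeR), on day 5 without WT replicate 2 or cKO replicate 1, and on day 7 without WT replicate 2 or cKO replicate 1, with an adjusted p of at most 0.0872 by edgeR. With only the 2 groups in the fit it was also lost on days 5 and 7 (adjusted p = 0.0897 and 0.0901 by edgeR).

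The gene was also higher in each of the BMDM sets. Set 1 had 2.25, 1.66 and 1.82 CPM in WT and 16.5, 15.3 and 14.6 CPM in cKO (3.02 ± 0.30, adjusted p = 6.15e-08 by edgeR). Set 2 had 0.278, 0.365 and 0.464 CPM in WT and 5.11, 6.64 and 4.99 CPM in cKO (3.93 ± 0.37, adjusted p = 2.55e-08 by edgeR). Set 3 had 1.57, 1.09 and 1.82 CPM in WT and 13.7, 15.8 and 14.2 CPM in cKO (3.28 ± 0.31, adjusted p = 2.15e-08 by edgeR). These groups were far apart in all 3 sets, and the cKO level of set 2 was below that of sets 1 and 3. The double knockouts held 11.2, 13.8 and 14.7 CPM (StingKO), 7.29, 5.78 and 3.78 CPM (MavsKO) and 3.75, 10.1 and 12.0 CPM (Irf7KO), all above every WT library. On day 8, untreated WT had 0.328, 0.212 and 0.524 CPM and cKO 1.78 and 1.46 CPM, without overlap and without a call (2.12 ± 0.58, adjusted p = 0.233 by edgeR). After IFNγ, WT had 1.39, 0.445 and 1.20 CPM and cKO 0 and 0.47 CPM (−1.43, adjusted p = 0.293 by edgeR). These rest on 13, 3 and 10 counts in WT and 0 and 4 in cKO. The 0 is that of cKO IFNγ replicate 1, which stood apart in mapping. Over 12 settings this estimate ran from −6.21 to −0.42. Hist3h2ba was too low to be tested in the antibody experiment and in peritoneal cells.

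**Figure D2:**
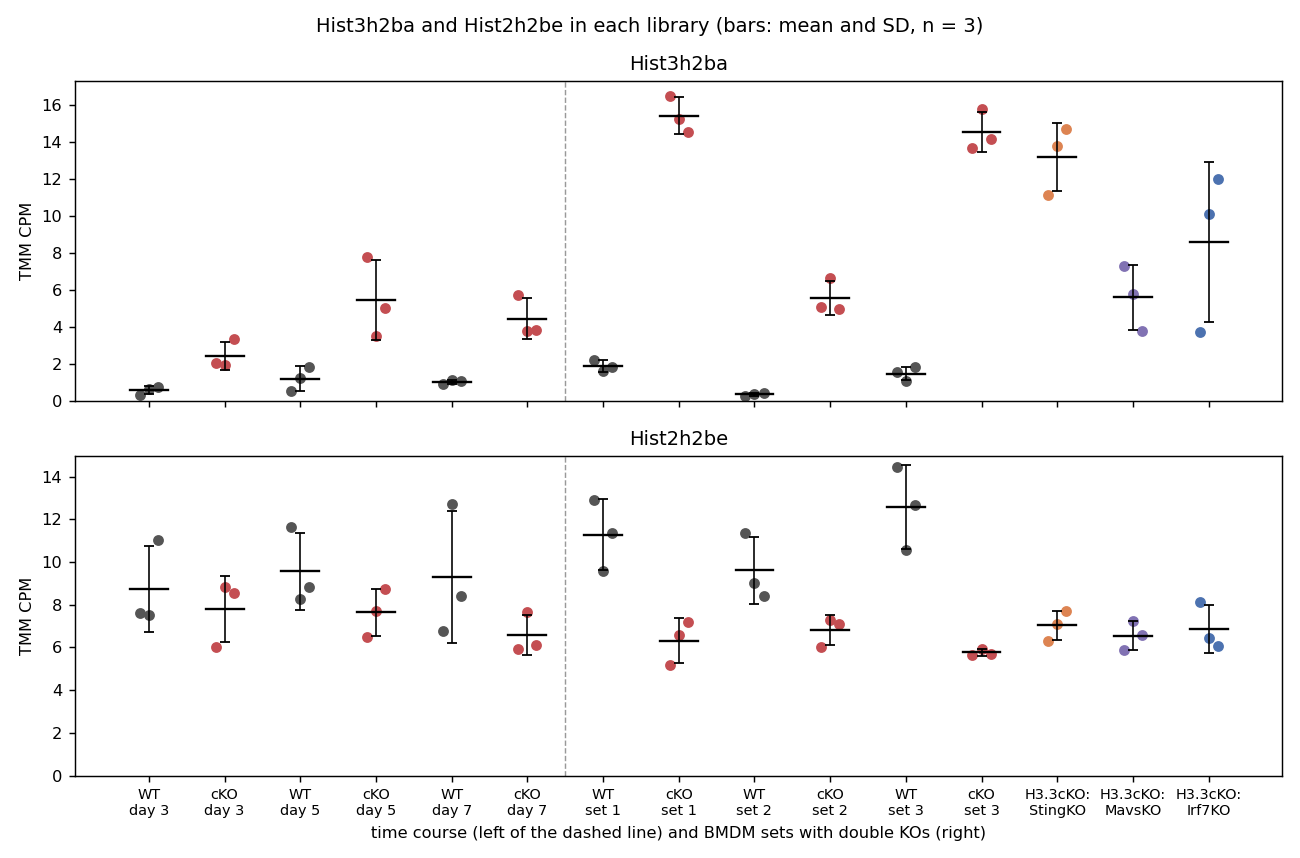
TMM CPM of Hist3h2ba and Hist2h2be in each library of the time course, the BMDM sets and the double knockouts, with 1 point per library and bars for the mean and SD (n = 3). Hist3h2ba lies higher in all cKO libraries of days 3, 5 and 7 and of the 3 sets, and Hist2h2be lies lower in all cKO libraries of the 3 sets.

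Hist2h2be, a gene of the Hist2 cluster for an H2B variant known from olfactory neurons, moved the other way in the sets. It lies at chr3:96221119-96223738 and also has no 50-base coding word in common with other members. In set 1 WT had 12.9, 9.56 and 11.4 CPM and cKO 5.18, 6.59 and 7.20 CPM (−0.83 ± 0.16, adjusted p = 0.000184 by edgeR). In set 2 WT had 11.4, 9.04 and 8.42 CPM and cKO 6.02, 7.29 and 7.12 CPM (−0.50 ± 0.15, adjusted p = 0.0195 by edgeR), a call that was lost without WT replicate 1 (−0.36, adjusted p = 0.15), without cKO replicate 1 (0.104) and with the strand column of the larger total (0.109). In set 3 WT had 14.5, 10.6 and 12.7 CPM and cKO 5.67, 5.94 and 5.70 CPM (−1.12 ± 0.15, adjusted p = 4.31e-06 by edgeR). Every cKO library was below every WT library of its set. In the time course the estimates were −0.16, −0.32 and −0.50 on days 3, 5 and 7 and none was called.

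**Figure D3:**
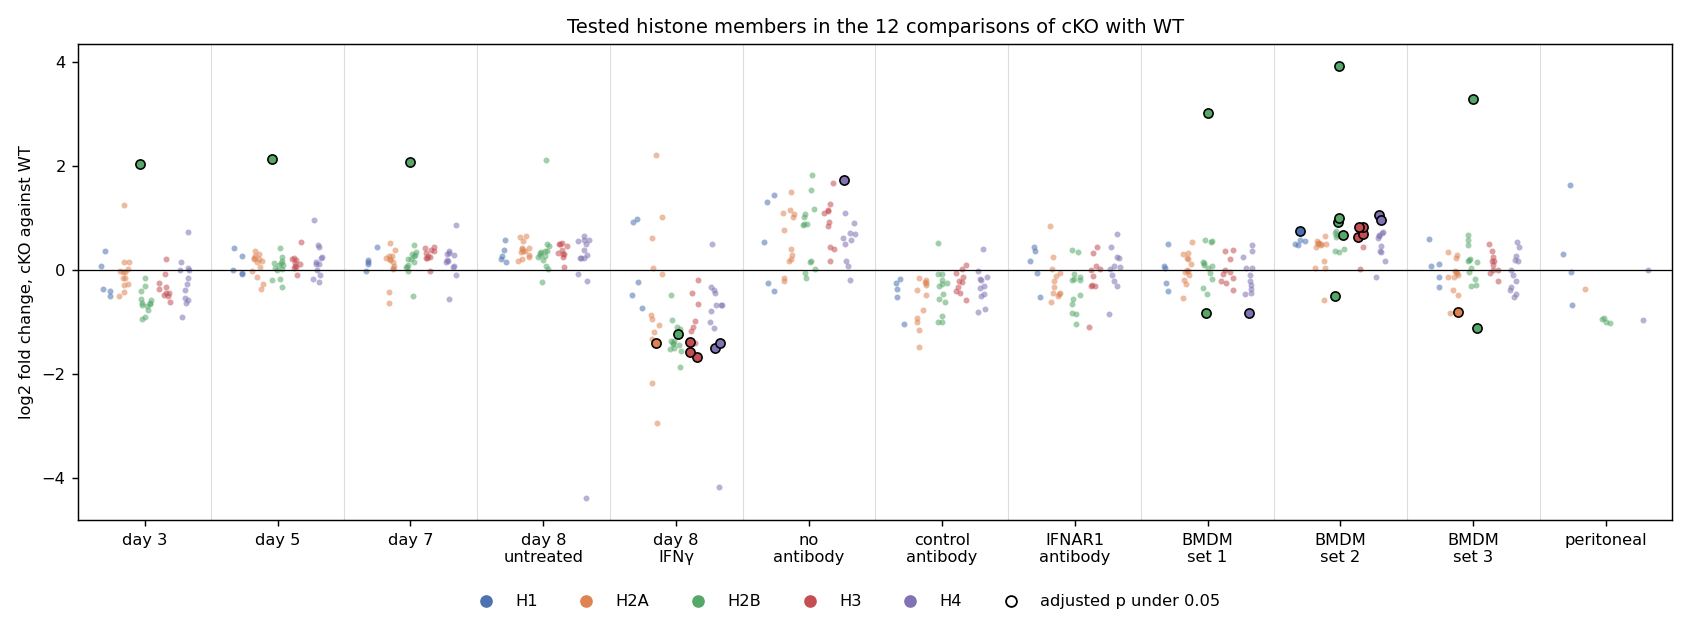
Log2 fold change of cKO over WT for every tested member in each of the 12 cKO and WT comparisons, coloured by histone class, with members called at an adjusted p under 0.05 marked. Hist3h2ba stands highest in the time course and the sets, and the members' median is −1.06 after IFNγ on day 8 and 0.60 in set 2.

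Over the 12 comparisons of cKO with WT, 19 members were called at least once, 14 of them in a single comparison. The share of all genes called at least once was not counted. Sets 1 and 3 alone called 34.7% and 34.9% of all genes, so the count of 19 is no result particular to the members. Hist1h3h was called in both directions, lower after IFNγ on day 8 and higher in set 2. Hist3h2a was called lower in set 3 and, under the replicate block, higher on day 3. Comparisons that share a fit share its estimate of the spread, and 12 members were not tested in any of them.

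Counts of called members differed among the 3 BMDM sets. In set 1, 1 member was called higher and 2 lower of 54, when 34.7% of all genes were called, and in set 3, 1 higher and 2 lower, when 34.9% were. The median over the members was 0.00 in both. In set 2, 11 members were called higher and 1 lower of 54, when 21% of all genes were called, 9.74% higher and 11.3% lower. Of the 54 estimates, 51 were above 0 (median 0.60, against −0.01 over all genes). The difference between the sets was not tested.

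In set 2 the called genes belonged to 4 classes, with 4 H2B, 4 H3, 2 H4 and 1 H1 gene higher. The H4 gene Hist1h4j had 47.8, 33.3 and 41.8 CPM in WT and 75.8, 106 and 72.4 CPM in cKO (1.05). Hist1h2bp had 1.84, 1.87 and 1.62 CPM against 3.44, 4.78 and 2.52 CPM (1.0), and Hist2h4 105, 79.3 and 96.6 CPM against 165, 225 and 159 CPM (0.97). All cKO libraries were above all WT libraries for these 3 genes. Groups lay apart upward for 36 of 54 members and 20% of all genes, and downward for 1 member and 24.5% of all genes. The sum of the members was 2596 ± 418 CPM in WT and 3996 ± 736 CPM in cKO (SD, n = 3), and set 2 as a whole lay below the WT sums of 7836 ± 2276 CPM in set 1 and 7303 ± 2962 CPM in set 3. The mitosis list had 9 of 18 genes called higher in set 2 and the DNA replication list 1 of 26. The member count in set 2 was 2 without WT replicate 2 or cKO replicate 2, 5 without WT replicate 3, 6 without cKO replicate 1 and 7 without WT replicate 1.

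In sets 1 and 3 the other called members were 2. Hist1h4h in set 1 had 246, 463 and 635 CPM in WT and 245, 270 and 241 CPM in cKO (−0.83 ± 0.30, adjusted p = 0.0325 by edgeR), with overlapping libraries. That call was lost without WT replicate 2 or 3 or any cKO replicate, with an adjusted p of 0.0598 to 0.252 by edgeR. Hist3h2a in set 3 had 6.77, 3.23 and 4.82 CPM in WT and 2.69, 2.94 and 2.85 CPM in cKO (−0.81 ± 0.26, adjusted p = 0.0182 by edgeR), with no overlap. It was called in 8 of 13 settings, and lost among others without WT replicate 1 (−0.51, adjusted p = 0.178 by edgeR), without cKO replicate 1 or 3 and with only the 2 groups in the fit. In set 1 the same gene had 5.02, 1.91 and 3.25 CPM against 3.31, 3.20 and 3.37 CPM, so the groups overlapped. The set 3 count was 7 without WT replicate 1, 8 without WT replicate 2 and 5 without WT replicate 3.

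Other genes of the histone pathway also differed in these 2 sets. Of 14 tested genes for transcription and processing of histone mRNA, 6 were called higher and 3 lower in sets 1 and 3. Slbp rose by 0.79 in set 1 and 0.74 in set 3 on the log2 scale, and Npat, the S phase coactivator of histone genes, by 0.38 and 0.31. Zfp473, which takes part in the cleavage of histone pre-mRNA, fell by 0.67 and 0.88 on that scale. The subunits of the histone chaperone CAF-1, Chaf1a and Chaf1b, rose by 0.51 and 0.56 in set 1 and by 0.68 and 0.80 in set 3. DNA replication genes were called higher in 22 of 26 cases in both sets, and among replacement histones H2afz, H2afv, H1f0 and the centromeric H3 gene Cenpa fell with H3f3a. In set 2, by contrast, Cstf2 was the only gene of the processing list called, lower by 0.44, and Cenpa was called higher (0.81). Neutrophil markers (5 of 8) and B cell markers (4 of 6) were called higher in sets 1 and 3. In set 1 the neutrophil sum was 60.4 to 113 CPM in WT and 198 to 283 CPM in cKO, and the B cell sum 2.69 to 6.90 CPM and 7.86 to 10.6 CPM, and no neutrophil marker was at 0. Their part was not tested.

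The double knockouts were set against the mean of the 3 cKO sets. H3.3cKO:StingKO gave 1 member called higher of 54, when 36.1% of all genes were called. That member, Hist1h1c, had 955, 654 and 788 CPM, within the range of 333 to 870 CPM of the cKO libraries in 2 of 3 cases (0.42 ± 0.16, adjusted p = 0.0376 by edgeR). The call was absent without any of 6 single libraries (replicate 1 of cKO set 1, replicates 1 and 3 of StingKO, replicates 1 and 3 of cKO set 2, or replicate 1 of cKO set 3). H3.3cKO:Irf7KO gave 0 called (9.85% of all genes called; 7 members with an unadjusted p under 0.05; DESeq2 0), with 49 of 54 estimates above 0 (median 0.24). Without cKO set 2 replicate 2 the Irf7KO count was 1.

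H3.3cKO:MavsKO gave 18 members called lower of 54, when 8.79% of all genes were called, with 53 of 54 estimates below 0 (median −0.68). They were 7 H2A, 6 H2B, 3 H1, 1 H3 and 1 H4 gene. Hist4h4 had 36.9, 29.0 and 30.3 CPM, against 72.1, 154 and 126 CPM in cKO set 1, 101, 38.9 and 97.4 CPM in set 2 and 45.5, 151 and 126 CPM in set 3 (−1.64 ± 0.40, adjusted p = 0.0105 by edgeR). Hist1h2af had 4.68, 4.63 and 4.92 CPM, against 15.5, 16.6 and 18.6 CPM in cKO set 1, 4.38, 7.79 and 3.65 CPM in set 2 and 13.4, 20.9 and 19.2 CPM in set 3. Hist1h2ae and Hist1h2ah showed the same order, with the MavsKO libraries below those of sets 1 and 3 and among those of set 2. With cKO set 2 alone as the reference 0 members were called, and with set 1 or set 3 alone 41 or 35 were. The count was 8 without MavsKO replicate 2 and 1 without MavsKO replicate 3. Stromal markers were called higher in MavsKO (5 of 5, sum of 82.1 to 293 CPM against 23.6 to 70.0 CPM over the cKO libraries) and neutrophil markers lower (6 of 8, 57.6 to 119 CPM against 151 to 321 CPM), and their part was not tested. Set and genotype cannot be told apart here.

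On day 8 without treatment, the members lay slightly higher in cKO and none was called (0 of 55, when 0.612% of all genes were called; 3 members had an unadjusted p under 0.05, and DESeq2 gave 0). Their sum was 3243 ± 818 CPM in WT (SD, n = 3) and 4056 ± 619 CPM in cKO (n = 2), and 51 of 55 estimates were above 0 (median 0.34). After 12 h of IFNγ the sum was 3056 ± 794 CPM in WT and 3381 and 1623 CPM in the 2 cKO libraries. In cKO replicate 1, which stood apart in mapping, H1 genes made up 58.5% of the sum and Hist1h1c alone had 1419 CPM, against an H1 share of 26.8% to 31.9% in the other day 8 libraries.

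**Figure D4:**
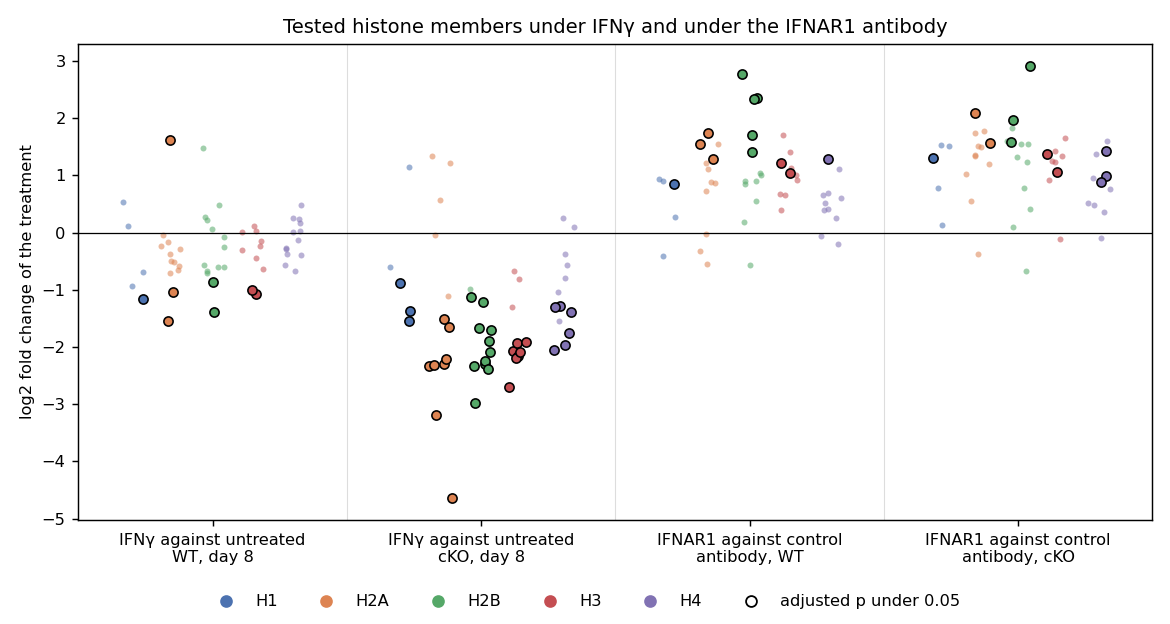
Log2 fold change of each tested member with IFNγ against untreated cells on day 8 and with the IFNAR1 antibody against the control antibody, in WT and cKO, by histone class, with called members marked. The medians are −0.29 in WT and −1.65 in cKO with IFNγ, and 0.90 in WT and 1.31 in cKO with the IFNAR1 antibody.

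Histone genes were called lower with IFNγ in both genotypes, in WT at a smaller share than all genes. In WT, 1 member was called higher and 7 lower of 55, when 40.1% of all genes were called and 20.1% were called lower (median −0.29, against −0.01 over all genes). Hist1h2an fell from 4.38, 2.86 and 6.55 CPM to 1.71, 1.19 and 1.80 CPM (−1.54, adjusted p = 0.0072 by edgeR). Hist1h2bl fell from 34.5, 25.6 and 37.2 CPM to 14.6, 7.87 and 14.5 CPM (−1.39, adjusted p = 0.00452 by edgeR), and Hist1h1b, which encodes the linker histone H1.5, from 185, 112 and 191 CPM to 79.0, 52.8 and 86.7 CPM (−1.16, adjusted p = 0.0278 by edgeR). Hist3h2a was the member that rose, from 2.85, 4.03 and 4.02 CPM to 9.10, 11.7 and 13.1 CPM (1.63 ± 0.37, adjusted p = 0.00598 by edgeR). None of these 4 genes overlapped between treatments. Groups lay apart in this way for 10 of 55 members downward and 1 upward. Over all genes the shares were 30.4% downward and 31.5% upward. The WT count was 16 without untreated replicate 2, 4 without untreated replicate 3 and 9 with the replicate number as a block.

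In cKO, 35 of 55 members were called lower and none higher with IFNγ, when 33.6% of all genes were called and 16.4% were called lower, with a median of −1.65 against −0.02 over all genes. The share was 11 of 14 for H2B, 7 of 10 for H3, 8 of 13 for H2A, 6 of 13 for H4 and 3 of 5 for H1. Hist1h2an had 4.45 and 5.95 CPM untreated and 0 and 0.235 CPM with IFNγ (−4.65 ± 0.72). Hist1h2bl went from 42.3 and 49.3 CPM to 1.80 and 7.41 CPM (−2.98 ± 0.43). Hist1h2ag went from 6.80 and 9.37 CPM to 0.601 and 0.940 CPM (−3.19 ± 0.61), and Hist1h3g from 27 and 32.7 CPM to 4.81 and 4.47 CPM (−2.71 ± 0.42). The treated libraries were all below the untreated ones in these 4 genes, and the fold of Hist1h2an rests on a library at 0. Groups lay apart downward for 43 of 55 members and 32.1% of all genes, and upward for 0 members and 27.5% of all genes. Without cKO IFNγ replicate 1, 42 members were called lower and 1 higher (median −1.66). Of the 8 members called in WT, 7 were also called in cKO (87.5% of the 8 and 20% of the 35), and without that library 8 were (100% of the 8 and 18.6% of the 43). The 2 contrasts share no library, but they share a fit. Since 35 of 55 members were called in cKO, a large overlap follows in part from that share alone. The overlap over all genes was not counted.

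After IFNγ, cKO lay below WT for 7 members, with none above, when 4.83% of all genes were called (median −1.06, against −0.01 over all genes; 32 of 55 with an unadjusted p under 0.05). The 7 were Hist1h3b, Hist1h3c, Hist1h3h, Hist1h4a, Hist1h4h, Hist1h2ac and Hist1h2bc. Hist1h3b had 68.5, 48.1 and 79.0 CPM in WT and 17.4 and 22.2 CPM in cKO (−1.68 ± 0.35, adjusted p = 0.0275 by edgeR). Hist1h3c had 115, 83.0 and 116 CPM against 25.3 and 42.3 CPM (−1.58), and Hist1h4a 66.3, 43.3 and 75.4 CPM against 17.4 and 24.7 CPM (−1.50). Hist1h2ac had 7.81, 6.83 and 8.77 CPM against 3.61 and 2.70 CPM (−1.41). The groups did not overlap in any of these 4 genes, while in untreated cells Hist1h3b, Hist1h3c and Hist1h4a overlapped and Hist1h2ac was higher in cKO (11.6 and 18.3 CPM against 10.2, 7.84 and 10.6 CPM). After IFNγ, groups lay apart with cKO lower for 31 of 55 members and 18.7% of all genes. With cKO higher, they did so for 0 members and 15.8% of all genes. The count was 5 without cKO IFNγ replicate 1 (median −0.98), 24 (5 of them higher) without cKO IFNγ replicate 2, and 0 without WT IFNγ replicate 1 or 3.

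Whether IFNγ acted differently in the 2 genotypes was tested as an interaction, which called no member and no gene (0% of all genes called). Unadjusted p was under 0.05 for 34 of 55 members and for 1105 of 13075 genes, and DESeq2 called 4 members. The interaction gave 24 called members without cKO IFNγ replicate 2 and 0 without cKO IFNγ replicate 1. The median was −1.30 with and −1.25 without that last library. Of the 14 genes for histone mRNA transcription and processing, 2 were called higher and 5 lower in WT and 1 higher and 3 lower in cKO, and of the 6 genes for histone deposition 5 were called lower in WT and 4 in cKO. Without cKO IFNγ replicate 1 the cKO counts were 2 higher and 4 lower of 14, and 5 lower of 6. Slbp fell by 0.87 in WT and 1.08 in cKO on the log2 scale, Chaf1b by 1.99 and 1.79, and the H3-H4 chaperone gene Asf1b by 0.87 and 1.36, while Hinfp, a transcription factor of H4 genes, rose by 1.29 and 1.60. Of the 26 DNA replication genes, 19 were called lower in WT and 17 lower and 1 higher in cKO, and of the 18 mitosis genes 0 in WT (2 with an unadjusted p under 0.05) and 6 lower in cKO.

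In the antibody experiment the members had their lowest mean sum with the control antibody in both genotypes. Their sums were 1542 ± 401, 1251 ± 241 and 1750 ± 452 CPM in WT (no, control and IFNAR1 antibody, SD, n = 3 each) and 1984 ± 222, 973 ± 72.8 and 1711 ± 276 CPM in cKO. IFNAR1 is a chain of the type I interferon receptor, and the antibody blocks it. Against the control antibody, the IFNAR1 antibody gave 12 of 51 members called higher in WT (9.89% of all genes called) and 11 in cKO (4.03%), none lower in either, with medians of 0.90 and 1.31 against 0.01 over all genes in both. The contrasts shared 9 called members, 75% of those in WT and 81.8% of those in cKO. They rest on different libraries of the same fit, and the overlap over all genes was not counted. With only the groups compared in the fit the WT count was 0, and with DESeq2 the cKO count was 22.

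Hist1h2bb had the largest change in both genotypes. It had 15, 6.34 and 6.95 CPM with the control and 44.4, 110 and 41.0 CPM with the IFNAR1 antibody in WT (2.78 ± 0.54, adjusted p = 0.00658 by edgeR). In cKO it had 6.6, 3.97 and 3.0 CPM against 64.4, 26.6 and 16.4 CPM (2.92 ± 0.56, adjusted p = 0.0141 by edgeR). Without antibody it had 39.5, 31.0 and 15.9 CPM in WT and 31.5, 39.0 and 26.7 CPM in cKO. Without antibody all libraries lay above those with the control antibody. They lay below the IFNAR1 libraries in WT and within their range in cKO, and these pairs were not tested. Hist1h2bk behaved likewise, with 6.36, 1.92 and 3.93 CPM against 13.1, 30.5 and 18.6 CPM in WT (2.35) and 4.19, 2.35 and 3.11 CPM against 16.7, 13.7 and 8.86 CPM in cKO (1.97). In WT, Hist1h2bp had 0.769, 0.339 and 0.366 CPM against 1.80, 4.14 and 1.71 CPM (2.34), and Hist1h2af 2.31, 0.735 and 0.823 CPM against 3.03, 6.14 and 3.93 CPM (1.75). In cKO, Hist1h2ab had 2.0, 1.98 and 1.04 CPM against 9.56, 7.78 and 4.19 CPM (2.09), and Hist1h2bg 18.6, 14.6 and 13.7 CPM against 71.4, 38.8 and 31.1 CPM (1.58). None of these pairs of groups overlapped. Groups lay apart upward for 15 of 51 members in WT and 32 in cKO, against 15.6% and 14% of all genes. Downward they did so for 3 and 2 members, against 17.2% and 14.4% of all genes.

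Cell cycle genes differed between the same libraries. The sum of the members was 1.4-fold higher in WT and 1.76-fold in cKO with the IFNAR1 than with the control antibody. The mitosis sum was 7.61-fold higher in WT and 5.01-fold in cKO, and 18 of 18 mitosis genes were called higher in both. DNA replication genes were called higher in 18 of 26 cases in WT and 4 of 26 in cKO. Of the genes for histone deposition, 5 of 6 were called higher in WT and 1 of 6 in cKO, with Asf1b in both (1.63 and 1.3), while 0 of the 14 genes for histone mRNA transcription and processing were called in either (by edgeR, 7 in WT and 1 in cKO had an unadjusted p under 0.05). The WT member count was 0 without control replicate 2, 2 without control replicate 3, 7 without IFNAR1 replicate 1 and 3 without IFNAR1 replicate 2. The cKO count was 3 without control replicate 2 or IFNAR1 replicate 1 and 0 without control replicate 3.

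Between genotypes the antibody experiment gave few calls. Without antibody, Hist1h4j was called higher in cKO (1 of 51 members, when 7.1% of all genes were called), with 17.6, 3.62 and 6.52 CPM in WT and 27, 35.8 and 29.1 CPM in cKO (1.73 ± 0.49, adjusted p = 0.0442 by edgeR). Its groups did not overlap. The call was lost without any single library except WT replicate 1, without which 27 members were called higher. With the control antibody 0 members were called (4.45% of all genes called; 6 with an unadjusted p under 0.05; DESeq2 1), and 47 of 51 estimates were below 0 (median −0.31). With the IFNAR1 antibody 0 were called (0.675%; 5 with an unadjusted p under 0.05; DESeq2 0), and 1 was without WT IFNAR1 replicate 3.

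Peritoneal macrophages held little of these transcripts. The sum of the members was 46.4 ± 14.7 CPM in WT and 32.9 ± 2.97 CPM in cKO (SD, n = 3 each). The labels give the same ribosomal RNA depletion kit for all libraries, whereas the study's methods state a SMART-Seq cDNA kit for these 6, so cell source and library kit cannot be told apart in this difference. Only 8 members reached a mean of 1 CPM, against 53 in the time course, and none of them was an H3 gene. They were Hist2h2be (8.73 CPM), Hist1h1c (7.11), Hist1h2bc (4.90), Hist3h2a (3.71), Hist1h4d (3.13), Hist1h2be (2.85), Hist1h1e (2.07) and Hist1h1b (1.32), and together they made up 82.0% of the sum. Of 24 members with an annotated 3′ untranslated region over 200 bases, 7 were among these 8, against 1 of the other 43. This split by length was made after the values were seen. Of the cell cycle measures, the DNA replication sum lay between 688 and 1661 CPM (median 2918 CPM in the time course). The mitosis sum lay between 306 and 1006 CPM (median 2644 CPM in the time course). Mki67 lay between 33.8 and 76.8 CPM (median 736 CPM in the time course). Slbp was not lower, with 52.7 to 89.9 CPM against a median of 44.9 CPM in the time course.

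**Figure D5:**
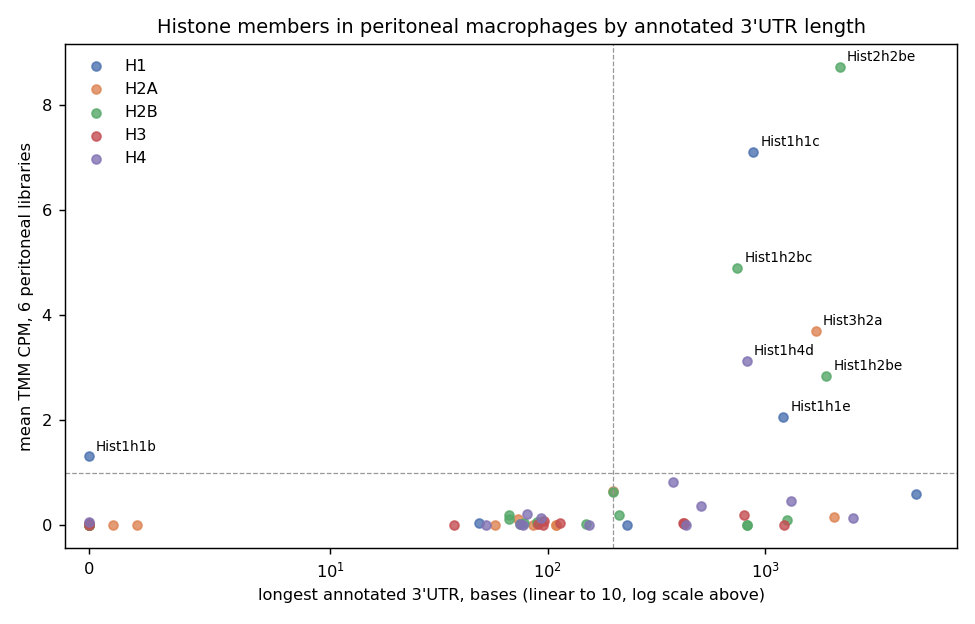
Mean TMM CPM of each member over the 6 peritoneal libraries against the length of its longest annotated 3′ untranslated region (linear to 10 bases, log scale above), coloured by histone class, with dashed lines at 200 bases and 1 CPM. Of the 8 members above 1 CPM, 7 lie to the right of 200 bases and Hist1h1b lies at 0.

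Between cKO and WT peritoneal cells no member was called (0 of 11 tested, when 0.971% of all genes were called; 3 had an unadjusted p under 0.05, and DESeq2 gave 0), with a median of −0.67 against 0.00 over all genes. Hist2h2be had 16.4, 6.81 and 11 CPM in WT and 7.05, 4.06 and 7.01 CPM in cKO (−0.92 ± 0.36, adjusted p = 0.453 by edgeR). Hist1h1c had 8.42, 5.95 and 7.32 CPM against 7.99, 6.48 and 6.49 CPM, and Hist1h2bc 11, 3.05 and 5.73 CPM against 4.02, 2.90 and 2.73 CPM. The groups overlapped for all 3 genes.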

How the data were processed

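RNA was sequenced from 81 libraries, each group is named by its labels, and 2 cKO libraries of day 8 whose labels conflict were left unassigned. Per the labels and methods, the authors trimmed reads with Cutadapt, aligned them with STAR to mm10 (GRCm38, the build of the annotation used here) and deposited raw read counts per gene, from which the unstranded counts were used. Kits for ribosomal RNA depletion are given in the labels, and another kit for peritoneal cells in the methods. Gene lists of the experiments differ and were joined on gene identifiers without versions. Lines of unmapped, multimapping and ambiguous reads stayed out of library sizes, and the median share of multimapping reads per experiment ran from 6.37% to 12.2%, which matters for genes with close copies. Depth is given with the results.

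Genes were filtered with filterByExpr (smallest count 10, smallest total 15), scaled by TMM and fitted per experiment with 1 term per group in edgeR 4.0.16 (glmQLFit and glmQLFTest, R 4.3.3, limma 3.58.1), with Benjamini-Hochberg adjustment over all genes tested. A gene is called at an adjusted p under 0.05. DESeq2 1.42.0 and the other alternatives are given in the closing section. The scripts were tested on simulated data. Class sums and lists are described by counts and medians and have no test. The members, lists and tests were chosen with earlier results of these data known. Libraries are named in full for the member of each class with the highest mean in the time course, up to 4 called members with the largest change per comparison of genotype or treatment, Hist1h3c, Hist1h3g and Hist2h3c2, and the 3 members highest in peritoneal cells.

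Replicate numbers are shared between groups in the labels. Deviations of same-numbered libraries from their group means correlated at over 0.1 in every pair of some comparisons. These were cKO against WT on days 3, 5 and 7, both day comparisons of cKO, IFNγ in WT, peritoneal cells and sets 1 and 3. The correlations ran from 0.117 (peritoneal cells) to 0.614 (IFNγ in WT). The labels do not say that the numbers pair the libraries, and the low correlations do not establish it. For these comparisons, a fit with the replicate as a block is given beside a result only where it changes the number of called members.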

Additional observations from a re-analysis of the deposited data

How the results depend on the processing

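Of 396 counts of called members under the alternatives, 123 moved by over 1.5 times, 73 of them without leaving out a library, and of 396 medians 21 moved by more than their spread and 17 changed sign. Without the filter on low counts, the counts were 5 (cKO against WT on day 3), 2 (day 5), 17 (day 5 against day 3 in cKO), 1 (change from day 3 to day 7), 2 (day 8 untreated), 36 (day 8 IFNγ), 19 (IFNγ in WT), 29 (interaction with IFNγ), 3 (no antibody), 21 (IFNAR1 against control in cKO), 23, 45 and 19 (sets 1, 2 and 3), 23 (StingKO), 49 (MavsKO) and 28 (Irf7KO). With DESeq2 they were 4 (day 3), 16 (day 5 against day 3 in cKO), 1 (change from day 3 to day 7), 20 (day 8 IFNγ), 4 (interaction), 3 (no antibody), 1 (control antibody), 22 (IFNAR1 against control in cKO) and 2 (StingKO). With a minimum of 1 CPM the day 3 count was 2. With only the groups compared in the fit they were 13, 0 and 0 (days 3, 5 and 7), 1 and 13 (day 5 against day 3 in WT and cKO), 0, 13 and 19 (day 8 IFNγ, IFNγ in WT and in cKO), 0 and 7 (no and control antibody), 0 (IFNAR1 against control in WT), 5 and 36 (sets 1 and 2), 19 (StingKO), 47 (MavsKO) and 7 (Irf7KO).

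Over members with at least 50% unique coding words alone the counts were 1 (day 5 against day 3 in cKO), 0, 3 and 6 (day 8 IFNγ, IFNγ in WT and in cKO), 0 (no antibody), 2 and 2 (IFNAR1 against control), 4 (set 2) and 5 (MavsKO), with fewer members counted by construction. Their medians were 0.07 (day 3), 0.14 (change from day 3 to day 7), −0.39 (day 8 IFNγ) and −0.42 (interaction). They were 0.51 (day 5 against day 3 in cKO), −0.88 (IFNγ in cKO), 0.55 (set 2) and −0.65 (MavsKO). With the strand column of the larger total the counts were 2 (no antibody) and 4 (Irf7KO, all H2A genes). With the replicate as a block, the count was 2 on day 3, 0 for day 8 IFNγ and 0 for no antibody. In these last 2 comparisons the correlation of same-numbered libraries was not over 0.1 in every pair. The block moved no other count by over 1.5 times. With the conflicting libraries placed by title the counts were 0 for day 8 IFNγ, for IFNγ in WT and for IFNγ in cKO, and placed by library name they were 21 for day 8 IFNγ and 1 for the interaction. Placed by library name without cKO IFNγ replicate 1, an alternative chosen after seeing the data, they were 2 (untreated), 35 (day 8 IFNγ), 20 (IFNγ in WT) and 26 (interaction). Against a single cKO set, they were 3, 15 and 3 for StingKO (sets 1, 2 and 3), 41, 0 and 35 for MavsKO, and 1 and 30 for Irf7KO (sets 1 and 2).

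Leaving out 1 library at a time gave 0 to 1 (days 3 and 5), 0 to 2 (day 7), 0 to 19 (day 5 against day 3 in cKO), 0 to 1 (change from day 3 to day 7), 0 to 24 (day 8 IFNγ), 4 to 16 (IFNγ in WT), 24 to 43 (IFNγ in cKO), 0 to 24 (interaction), 0 to 27 (no antibody), 0 to 1 (IFNAR1 antibody), 0 to 15 and 0 to 11 (IFNAR1 against control in WT and cKO), 2 to 4, 2 to 8 and 2 to 8 (sets 1, 2 and 3), 0 to 1 (StingKO), 1 to 19 (MavsKO) and 0 to 1 (Irf7KO). A group left with 1 library is assumed to vary like the others. The cause of these differences was not tested. Hist3h2ba was called under 12, 10 and 10 of 13 settings on days 3, 5 and 7. Depth was lowest on day 8, with as few as 3614967 counts, and limits what can be seen there of the low H2A genes.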

Other observations

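Hist1h4m, an H4 gene whose coding sequence is identical to that of Hist1h4n, was counted almost only in 2 libraries. WT day 8 replicate 1 had 112 counts untreated (12.3 CPM) and WT day 8 replicate 1 with IFNγ had 110 counts (11.8 CPM). Every other library of the series had at most 4 counts. Hist1h4n had 289 and 287 counts in those 2 libraries and 160 to 527 counts in the other WT libraries of day 8. The gene was named after its values were seen, and it was not called in any comparison of day 8.

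The 2 cKO libraries of day 8 with conflicting labels differed from each other in histone genes. The library whose title gives IFNγ and whose library name gives untreated had a member sum of 4334 CPM, with 144 CPM of Hist1h3c, 31.8 CPM of Hist1h3g, 44.4 CPM of Hist1h2bl and 2.99 CPM of Hist3h2a. The library whose title gives untreated and whose library name gives IFNγ had a sum of 1724 CPM, with 49.0 CPM of Hist1h3c, 5.03 CPM of Hist1h3g, 7.60 CPM of Hist1h2bl and 14.2 CPM of Hist3h2a. The cKO libraries whose labels agree had 119 and 149 CPM of Hist1h3c untreated and 25.3 and 42.3 CPM with IFNγ.

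Counted over both strand columns, without the fragments lost to antisense genes, 4 members gave values that the unstranded counts do not show. All were named after their values were seen. In the time course Hist2h2bb had 0 unstranded counts against 6314 over both columns, and Hist2h2ab 259 against 3387. The other 2 are given by library. Hist2h3b had 55.4, 62.2 and 45.0 CPM in WT on day 3 and 45.7, 38.0 and 64.4 CPM in cKO, against 0 unstranded counts in the time course. On day 5 it had 93.4, 72.6 and 78.3 CPM in WT and 81.4, 98.1 and 109.7 CPM in cKO. Hist1h4b had 106.7, 108.3 and 73.6 CPM in WT on day 3 and 60.2, 47.5 and 53.6 CPM in cKO, without overlap. The antisense partners of Hist2h3b and Hist1h4b, Gm20628 and 4930558J22Rik, share these bases, so the values may hold reads of either gene. With the strand column of the larger total, Hist2h3b was called higher from day 3 to day 5 in cKO, and higher in cKO without antibody and in set 2. Hist2h2bb was called higher in cKO without antibody and lower in MavsKO. Hist1h4b was called lower in cKO after IFNγ, and Hist2h2ab lower in cKO in set 1. Hist2h3b, Hist2h2bb and Hist1h4b were called lower with IFNγ in cKO.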
